A study of Drosophila melanogaster with 9 samples.

Results

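The unplaced scaffold sets U and Uextra of the Drosophila melanogaster build dm3 held 3725 of the 39296 peaks in 6 deposited ChIP-seq peak lists, or 9.48% (95% Wilson interval 9.19 to 9.77). Members were all peaks whose scaffold is U or Uextra. No measured value entered that choice. Of the 3725 peaks, 2581 came from a single H3K4me3 library, and the rest from 5 KDM5 libraries.

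The libraries were made from whole adult females aged 1 to 3 days. In 4 of them an anti-HA antibody was used on flies homozygous for k6801 and carrying gHA-KDM5, a genomic rescue transgene that makes HA-tagged KDM5. Paraquat libraries 1 and 2 came from such flies fed 20 mM paraquat in 5% sucrose for 6 hours, and control libraries 1 and 2 from flies of the same genotype fed 5% sucrose for 6 hours. The other 2 libraries came from w1118 (wildtype) flies, for which no feeding is recorded, and used antibodies against KDM5 and against H3K4me3, with 1 library each and no replicate. Tagged and wildtype flies therefore differ in genotype, antibody and feeding together. The labels do not say whether libraries 1 and 2 of a condition are separate collections of flies, and their spread may be only technical. Whole animals were used, so a site bound in fewer cells and a site bound less per cell cannot be told apart.

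H3K4me3, trimethylation of lysine 4 of histone H3, marks the promoters of active genes, and KDM5 is the fly demethylase that removes it. KDM5 also binds many promoters that carry the mark. The scaffolds named U and Uextra collect assembled pieces that could not be placed on a chromosome arm. Uextra holds the shorter pieces of lower quality. A position on U or Uextra is thus a place in the build, not on a chromosome. A gap between neighbouring peaks there may span more than 1 piece. Much of this sequence comes from heterochromatin and is rich in transposable elements, satellites and other repeats, where short reads often match more than 1 place. No sequence or gene model of dm3 was used here, so the members are given by position only.

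The mark and its demethylase were distributed very differently. On U and Uextra lay 35.4% (34.3 to 36.5) of all 7287 H3K4me3 peaks, but 3.84% (3.47 to 4.26) of the 8948 wildtype KDM5 peaks. The anti-HA shares fell into 2 levels. Paraquat libraries 1 and 2 had 397 and 37 unplaced peaks, or 5.36% (4.87 to 5.90) and 0.762% (0.554 to 1.05) of their lists, and control libraries 1 and 2 had 335 and 31, or 5.69% (5.13 to 6.31) and 0.630% (0.444 to 0.893). The number 1 libraries were high and the number 2 libraries low under either feeding. Intervals on shares are 95% Wilson intervals throughout; they cover counting error only, since peaks are not replicates.

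**Figure D1:**
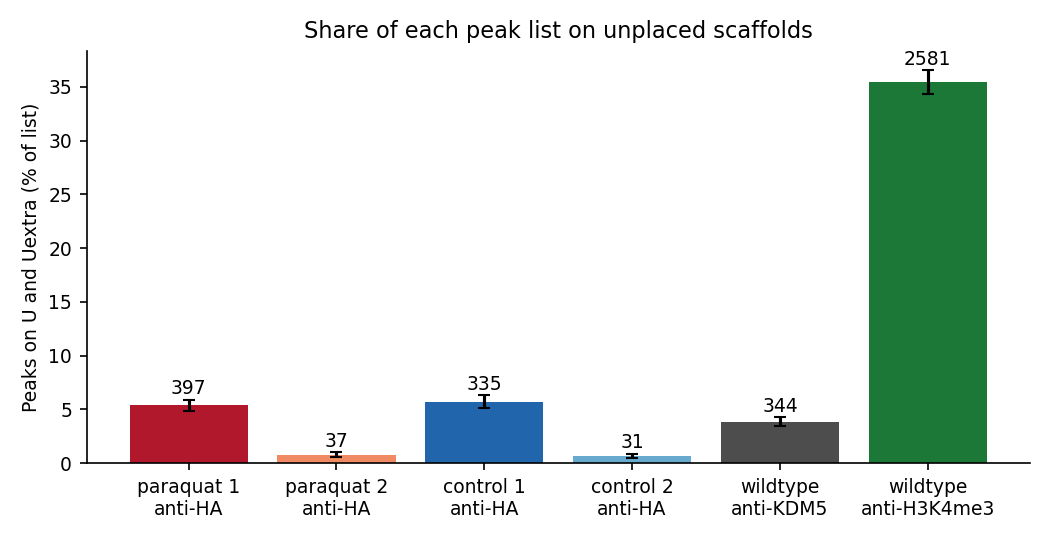
Peaks on U and Uextra as a percentage of each list (y axis) in the 6 libraries (x axis), with 95% Wilson intervals as error bars and the number of unplaced peaks above each bar. H3K4me3 stands at 35.4%, and no KDM5 list is above 5.69%.

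Paraquat and control did not differ beyond this spread. The mean share was 3.06% ± 3.25 in paraquat libraries and 3.16% ± 3.58 in control libraries (SD, n = 2 each; exact permutation test, two-sided, p = 1, where 2 against 2 libraries can give no p below 0.333). Within number 1 the paraquat share was lower (paraquat minus control, -0.329 percentage points), and within number 2 it was higher (0.132 points). This test cannot pass 0.05 here, so the p says nothing about whether the conditions are alike.

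Most members lay on Uextra. It held 2466 of the 2581 H3K4me3 peaks and 322 of the 344 wildtype KDM5 peaks, together with 329 and 33 peaks in paraquat and 282 and 25 in control libraries. On U lay 115 H3K4me3 peaks, 22 wildtype KDM5 peaks, 68 and 4 paraquat peaks and 53 and 6 control peaks. Per Mb of the stretch up to the last peak of any list (29.0 Mb on Uextra, 10.03 Mb on U), H3K4me3 reached 85.1 peaks on Uextra and 11.5 on U, against 17.8 to 43.2 on the chromosome arms. H3K4me3 was thus denser on Uextra, and sparser on U, than on any arm. Wildtype KDM5 was sparser than on any arm on both, with 11.1 peaks per Mb on Uextra and 2.19 on U, against 65.1 to 82.1 on the arms. The order of the 2 wildtype lists on Uextra was thus the opposite of that on every arm. These are single libraries that may not have been called alike, and the contrast was not tested.

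Along Uextra the H3K4me3 peaks and the KDM5 peaks were placed differently. In 10 stretches of equal length, taken in the order of the build, H3K4me3 had 26.9 peaks per Mb in the first and 134 in the last. The first 3 stretches had 25.2 to 33.8, the fourth 82.8, and the following 6 had 95.9 to 134. The anti-HA lists were densest in the first stretch, with 26.9 and 3.79 peaks per Mb in paraquat libraries 1 and 2 and 21.04 and 3.45 in control libraries 1 and 2. In the last stretch they had 6.21 and 0.345 in paraquat and 5.52 and 0.690 in control libraries. Wildtype KDM5 was highest in the sixth stretch, at 20.01 peaks per Mb, and fell to 1.38 in the last. The first 5 stretches held 64.4% and 78.8% of the Uextra peaks of paraquat libraries 1 and 2, 63.5% and 80% of those of control libraries 1 and 2, 62.7% of those of wildtype KDM5 and 34.1% of those of H3K4me3. In the order of the build, the anti-HA lists were thus densest at the start of Uextra, wildtype KDM5 in its middle with few peaks at the end, and H3K4me3 at its end.

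**Figure D2:**
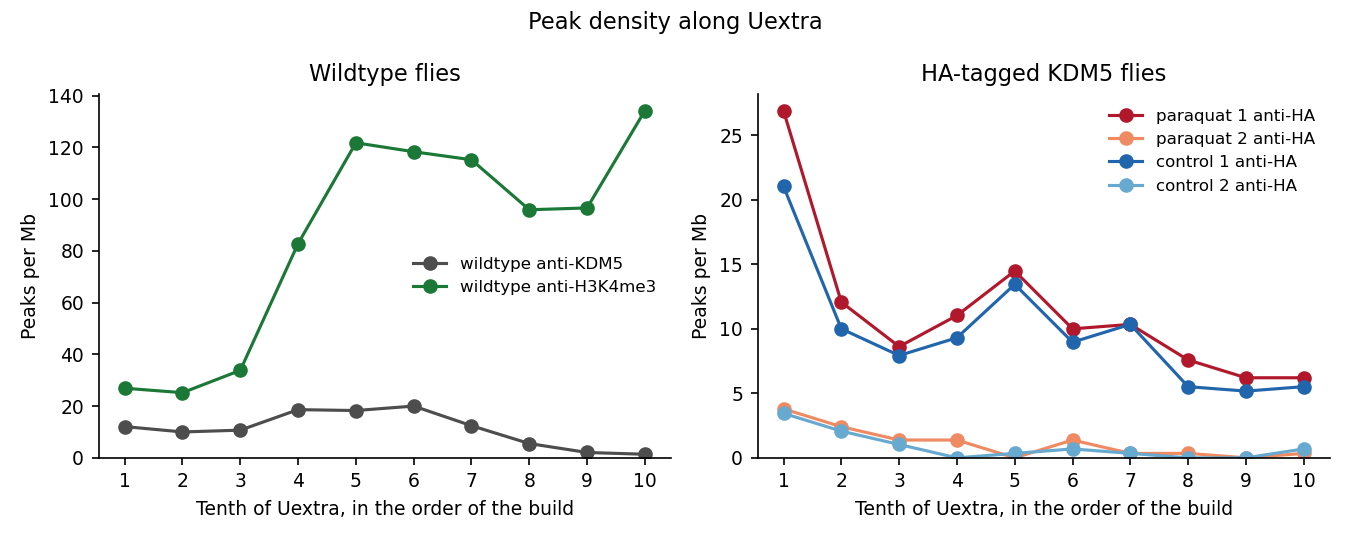
Peaks per Mb (y axis) in 10 consecutive stretches of equal length along Uextra (x axis), for the wildtype lists on the left and the anti-HA lists on the right, on separate scales. H3K4me3 climbs to 134 per Mb in the last stretch, where wildtype KDM5 is at 1.38, and the number 1 anti-HA lists start at 26.9 and 21.04 and end near 6.

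At a scale of 100 kb, nearly every window of Uextra held an H3K4me3 peak. The peaks themselves covered 472 kb of Uextra, with gaps of up to 192210 bp. Of 290 windows, 282 held an H3K4me3 peak, or 97.2% (94.7 to 98.6), with a median of 8 and at most 30 a window. Wildtype KDM5 had a peak in 185 windows, paraquat libraries in 180 and 29, and control libraries in 166 and 24. The 3 windows richest in H3K4me3 adjoined one another near the end of Uextra. The window at 28600001 to 28700000 had 30 H3K4me3 peaks, the one at 28700001 to 28800000 had 26 and the one at 28800001 to 28900000 had 27. None of the 3 held a wildtype KDM5 peak, and the only anti-HA peak in them was 1 of paraquat library 1 in the last.

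By median gap, unplaced peaks of KDM5 stood far apart, and those of H3K4me3 closer. The median gap between neighbouring H3K4me3 peaks on U and Uextra was 6594 bp, and the middle 50% of gaps ran over 2476.5 to 14760 bp. For wildtype KDM5 it was 56204.5 bp. Paraquat libraries 1 and 2 had median gaps of 50668 and 447824 bp, and control libraries 1 and 2 had 58773 and 451220 bp. On the arms the median gap was 3947.5 bp for H3K4me3, 3150 bp for wildtype KDM5 and 1440.5 to 3526 bp in the anti-HA lists. H3K4me3 peaks were thus denser per Mb on Uextra than on any arm, yet a typical gap was longer. Close neighbours were fewer on unplaced scaffolds in every list. Within 1000 bp of another peak of the same list lay 24.1% of unplaced H3K4me3 peaks, against 55.3% of those on arms, and 9.30% of unplaced wildtype KDM5 peaks, against 53.8%. In number 1 the share was 26.2% on unplaced scaffolds and 73.2% on arms for paraquat, and 25.7% and 67.3% for control. U and Uextra differed in these number 1 lists. The share was 61.8% on U and 18.8% on Uextra for paraquat, and 69.8% and 17.4% for control. On U the median gap to the nearest peak was 300 bp for paraquat and 249 bp for control, against 339 and 458 bp on arms.

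Unplaced peaks were narrower than arm peaks in all 6 lists. The median width was 161 and 188 bp in paraquat libraries, against 392 and 328 bp on arms. It was 173 and 190 bp in control libraries, against 329 and 307 bp on arms. Wildtype KDM5 peaks measured 428.5 bp, against 841 bp on arms, and H3K4me3 peaks 163 bp, against 281 bp. Over the lists the difference averaged -196 bp ± 114 (SD, n = 6 lists; exact sign-flip permutation test, two-sided, p = 0.0313, the smallest 6 lists can give). Adjusted by Benjamini-Hochberg over the 4 measures compared in this way, the permutation p was 0.125 and did not pass 0.05. The 4 anti-HA lists share genotype and antibody, so the 6 lists are not fully independent units, and these p-values may be too small. The widest unplaced peak of wildtype KDM5 covered 1277 bp of Uextra at 169846 to 171122, and that of H3K4me3 607 bp of U at 993688 to 994294.

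None of the other 3 measures passed the test. They were the fold enrichment, which is the authors' ratio of the ChIP pileup (the stacked fragments at the summit) over the local background, the local background itself, and the percentile, which ranks each peak's −log10 p within its own list with 100 as the strongest. The median fold was 2.51 and 3.83 in paraquat libraries 1 and 2, against 3.26 and 3.06 on arms, and 2.55 and 3.64 in control libraries 1 and 2, against 3.00 and 3.12. It was 3.06 for wildtype KDM5, against 5.74, and 2.20 for H3K4me3, against 2.53. The exact sign-flip permutation test over the 6 lists gave p = 0.469 for the fold, p = 0.25 for the background and p = 0.594 for the percentile (adjusted 0.594, 0.5 and 0.594). Unplaced peaks thus had lower median folds in 4 lists and higher ones in both number 2 anti-HA lists. The median background was lower in no list. It was 14.9 fragments in control library 2, against 12.5 on arms, 39.0 in wildtype KDM5, against 31.5, and 18.1 in H3K4me3, against 14.4, and it stood at the lowest level of the list on both kinds of scaffold in the other 3 lists.

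Strength within the list showed how uneven the members were. In the number 1 libraries most unplaced peaks were weak, with median percentiles of 29.9 in paraquat and 28.0 in control. In the number 2 libraries the few unplaced peaks were mostly strong, with medians of 73.7 in paraquat and 67.4 in control. The strongest 10% of a list took in 27 of 397 and 15 of 37 unplaced peaks in paraquat libraries 1 and 2, and 34 of 335 and 12 of 31 in control libraries 1 and 2. As shares these were 6.80% and 40.5% in paraquat libraries 1 and 2 and 10.1% and 38.7% in control libraries 1 and 2, so the number of strong unplaced peaks differed between numbers much less than the number of weak ones. In wildtype KDM5 none of the 344 unplaced peaks reached the strongest 10%. The upper Wilson bound of that share is 1.10%. The highest stood at percentile 77.5, and 35.5% lay above percentile 30 and up to 40. H3K4me3 peaks were spread over the whole range, with 15.8% in the weakest 10% of the list and 6.82% in the strongest 10%, against 7.08% and 12.0% on arms.

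**Figure D3:**
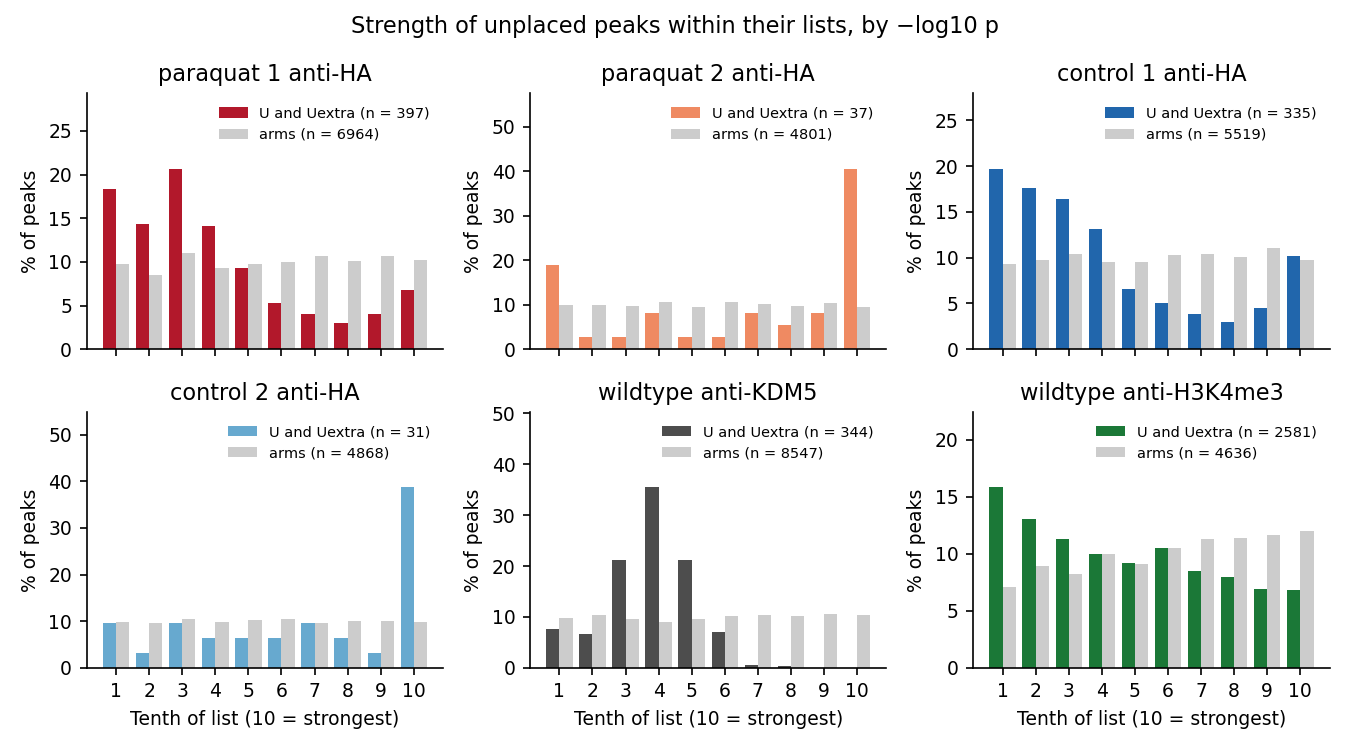
Percentage of peaks (y axis) in each of 10 equal classes of the list by −log10 p (x axis, 10 is strongest, y scales differ between panels) for peaks on U and Uextra (coloured, left bar) and on arms (grey, right bar), in the 6 libraries. Paraquat 2 and control 2 have 40.5% and 38.7% of their unplaced peaks in the strongest class, and wildtype KDM5 has none there.

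The strongest unplaced wildtype KDM5 peak lay on U at 1178768 to 1179940, with a pileup of 308.7, a fold of 8.27 and rank 2011 in its list. It met anti-HA peaks of both number 1 libraries, at folds of 2.65 in paraquat and 2.49 in control, and no H3K4me3 peak. The next 4 were on Uextra. At 8143101 to 8143606 the fold was 8.43, and paraquat library 1 alone of the anti-HA lists had a peak there (fold 2.58). At 169846 to 171122 it was 7.22, with a paraquat library 1 peak (2.99) and an H3K4me3 peak (2.53). At 11853884 to 11854438 it was 7.40, with both number 1 anti-HA peaks (4.42 in paraquat, 3.19 in control) and an H3K4me3 peak of fold 3.83. The fifth, at 348286 to 348714 with a fold of 7.37, met no other list. None of the 5 had a peak in a number 2 library.

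The strongest unplaced H3K4me3 peaks were among the strongest of their whole list. The peak on Uextra at 14899353 to 14899727 ranked 4 of 7287, with a pileup of 114 and a fold of 6.31. The peak on U at 4252670 to 4253075 ranked 6 (fold 5.75). On Uextra, those at 23454353 to 23454479, 22426474 to 22427050 and 25090517 to 25090993 ranked 7, 10 and 16, with folds of 6.36, 4.40 and 3.22. Of these 5, 1 met a KDM5 peak of any list, the one at 22426474, and the wildtype KDM5 fold there was 1.60. The other strong H3K4me3 peaks with KDM5 were at 1404858 to 1405133 (fold 5.15, rank 29) and 22827761 to 22827877 (fold 3.07, rank 34). At 1404858 there was a peak in paraquat libraries 1 and 2 (folds 4.43 and 1.90), in control library 1 (4.32) and in wildtype KDM5 (3.87). At 22827761 there was no wildtype KDM5 peak, only peaks of paraquat library 1 (fold 1.53) and control library 1 (1.97). The H3K4me3 background there was 3.39 times the lowest of its list.

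Few unplaced H3K4me3 peaks met KDM5. A wildtype KDM5 peak overlapped 244 of the 2581, or 9.45% (8.38 to 10.6) by at least 1 bp. The same share was 59.7% over the whole H3K4me3 list and 88.3% (87.4 to 89.2) on the arms. Any anti-HA peak was met by 242, or 9.38% (8.31 to 10.6), where the whole list had 57.8% and the arms 85.4% (84.3 to 86.3). The anti-HA count came mainly from number 1. Paraquat libraries 1 and 2 met 180 and 16 of the 2581, or 6.97% and 0.620%, where the whole list had 56.1% and 46.2%. Control libraries 1 and 2 met 163 and 14, or 6.32% and 0.542%, where the whole list had 52.2% and 46.2%. In all, 2185 H3K4me3 peaks, or 84.7% (83.2 to 86.0), met no KDM5 list. They were the weaker ones, with a median percentile of 37.9, against 60.9 for the 90 that met both wildtype KDM5 and anti-HA peaks, 54.5 for the 154 that met wildtype KDM5 alone and 61.7 for the 152 that met anti-HA peaks alone. A local background above 2 times the lowest of the list was less common among them, at 14.6%. It was found at 22.2%, 31.8% and 25.7% of the peaks that met KDM5, in the same order. With 1 library of each, these differences between scaffolds and between classes of peaks were not tested.

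The share with wildtype KDM5 followed the place on Uextra. It was 24.4% in the first of the 10 stretches, 24.7% in the second and 18.4% in the third, then 15.8%, 12.2%, 13.4%, 8.38%, 5.76%, 1.79% and 0.257% in the following ones. In the last stretch 1 of 389 H3K4me3 peaks met a wildtype KDM5 peak. The wildtype KDM5 peaks themselves numbered 35, 29 and 31 in the first 3 stretches, 54, 53 and 58 in the following 3, and 36, 16, 6 and 4 in the last 4. H3K4me3 peaks that met one numbered 19, 18 and 18 in the first 3 stretches and 38, 43 and 46 in the following 3. All H3K4me3 peaks there numbered 78, 73 and 98, and then 240, 353 and 343. Overlapping peaks were thus most numerous in the stretches with most wildtype KDM5 peaks, though their share was lower than in the first 3. Both number and share were lowest in the last stretch, where wildtype KDM5 peaks were fewest.

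Seen from wildtype KDM5, the overlap with H3K4me3 was not low, while in every anti-HA list it was lower than over the whole list. Of the 344 unplaced wildtype KDM5 peaks, 218, or 63.4% (58.2 to 68.3), overlapped an H3K4me3 peak, where the whole list had 38.2% and the arms 37.4% (36.4 to 38.4). Among anti-HA peaks on unplaced scaffolds the share with H3K4me3 was 43.3% (38.5 to 48.2) and 43.2% (28.7 to 59.1) in paraquat libraries 1 and 2, where the whole lists had 51.5% and 66.4%. It was 48.1% (42.8 to 53.4) and 41.9% (26.4 to 59.2) in control libraries 1 and 2, where the whole lists had 64.7% and 68.3%. On the arms H3K4me3 was found mostly at the stronger wildtype KDM5 peaks, with median percentiles of 80.6 with the mark and 32.02 without. On unplaced scaffolds these medians were 36.2 and 30.3.

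Where peaks did overlap, their summits were close. From unplaced H3K4me3 summits the median distance to the wildtype KDM5 summit of an overlapping peak was 76.5 bp, against 98 bp on arms. To the anti-HA summits it was 45 and 59.5 bp for paraquat libraries 1 and 2 and 53 and 45 bp for control libraries 1 and 2, against 77 to 99 bp on arms. Unplaced peaks are narrower, which limits these distances.

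Tagged and wildtype KDM5 were found at different unplaced sites more often than not. A wildtype KDM5 peak was met by 29.0% (24.7 to 33.6) and 48.6% (33.4 to 64.1) of unplaced peaks in paraquat libraries 1 and 2, where the whole lists had 91.8% and 98.0%. In control libraries 1 and 2 the shares were 22.1% (18.0 to 26.8) and 41.9% (26.4 to 59.2), where the whole lists had 92.9% and 98.9%. In reverse, any anti-HA peak met 124 of the 344 wildtype peaks, or 36.05% (31.1 to 41.3), where the whole list had 55.4%. Paraquat libraries 1 and 2 met 32.6% and 4.94% of the wildtype peaks, where the whole list had 53.7% and 42.2%, and control libraries 1 and 2 met 20.6% and 3.78%, where the whole list had 44.6% and 41.8%. The shortest wildtype KDM5 peak is 206 bp and that of every other list 100 bp, so the lists may not have been called alike, and absence from one is absence of a called peak only.

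Merging the 4 anti-HA lists gave 509 regions on U and Uextra out of 7537 in all. Of the 509, 282 came from 1 library, 169 of them from paraquat library 1 and 107 from control library 1. The pair of number 1 libraries shared 190 regions absent from both number 2 libraries, which is 37.3% (33.2 to 41.6), where the share over all merged regions was 9.18%. The pair of number 2 libraries shared none absent from number 1, where the share over all was 0.876% (0 of 509, upper Wilson bound 0.749%). All 4 libraries had a peak in 20 regions, or 3.93% (2.56 to 5.99), where the share over all was 44.7%.

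Feeding parted few of them. Both paraquat and neither control library had a peak in 4 regions, or 0.786% (0.306 to 2.003), where the share over all was 1.91%, and both control and neither paraquat library in 1, or 0.196% (0.0347 to 1.10), where the share over all was 0.133%. The strongest of the 4, on Uextra at 9037112 to 9037324, had folds of 4.14 and 5.92 and percentiles of 71.0 and 97.1 in paraquat libraries 1 and 2, with neither a wildtype KDM5 nor an H3K4me3 peak. The next, at 9796193 to 9796398, had folds of 2.65 and 2.02. At 16988997 to 16989181 they were 2.40 and 1.83, with wildtype KDM5 (3.30) and H3K4me3 (2.60) peaks. The single control region, on U at 9170080 to 9170232, had folds of 1.52 and 2.30 in control libraries 1 and 2, with an H3K4me3 peak (2.22) and no wildtype KDM5 peak. These counts depend on each library. Leaving out 1 library loosens the rule to a peak in 1 library, or absence from 1, so higher counts follow from the rule itself. The 4 paraquat regions became 8 without paraquat library 1, 173 without paraquat library 2, 9 without control library 1 and 6 without control library 2. The single control region became 5 without paraquat library 1, 3 without control library 1 and 108 without control library 2, and stayed at 1 without paraquat library 2.

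Most sites shared by anti-HA lists and absent from wildtype KDM5 lay on unplaced scaffolds. Of 227 unplaced regions in 2 or more anti-HA libraries, 165, or 72.7% (66.5 to 78.1), had no wildtype KDM5 peak, where the share over all such regions was 4.78% and that on arms 1.45% (1.15 to 1.83). The series held 243 regions of this kind, and these 165 were 67.9% of them. The number 1 pair alone gave 146 of the 165. Those 146 were 252 bp wide at the median and stood at a median percentile of 31.8 (1.45 to 97.8), and 58 of them had an H3K4me3 peak. Without paraquat library 1 the 165 became 16, and without control library 1 they became 18; without paraquat library 2 or control library 2 they stayed at 163. Without either number 1 library few regions thus remained in 2 or more libraries.

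The 20 unplaced regions of all 4 anti-HA libraries fell into 2 sets of 10, a division made after their values were seen. In the first set no region had a wildtype KDM5 peak, and none had an H3K4me3 peak. In the second all had wildtype KDM5 and 9 had H3K4me3. Over all 3370 regions of 4 libraries, 0.356%, or 12, lacked wildtype KDM5, and 10 of those 12 were these. On the arms 1 of 3342 did, at a mean percentile of 29.4. An H3K4me3 peak was found in 83.4% of all regions of 4 libraries.

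The 10 regions without wildtype KDM5 stood high in all 4 anti-HA lists. Their mean percentile over the 4 libraries was 86.1 to 99.9, with a median of 97.5, against a median of 66.3 for arm regions of 4 libraries that had wildtype KDM5. The region on Uextra at 17026051 to 17026249, 199 bp wide, had folds of 9.58 and 9.82 in paraquat libraries 1 and 2 and 6.89 and 8.46 in control libraries 1 and 2. It ranked 6 and 3 in the paraquat lists and 19 and 7 in the control lists. The region at 7039378 to 7039739 was the strongest peak of both paraquat lists, with folds of 8.99 and 9.61, and ranked 33 and 4 in the control lists, with folds of 5.92 and 7.91. In both regions each paraquat fold was above each control fold.

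The next regions in that order were more even. At 2178513 to 2179015 on Uextra the folds were 6.63 and 6.62 in paraquat libraries and 6.79 and 6.46 in control libraries, so the conditions overlapped. At 9095412 to 9096013 on U they were 7.14 and 6.26 in paraquat and 6.96 and 5.45 in control libraries, again overlapping. The fifth, at 19603879 to 19604074 on Uextra, had folds of 4.14 and 4.41 in paraquat and 3.46 and 4.15 in control libraries, overlapping by a narrow margin. Its background was the highest of the set, at 34.7 and 33.0 fragments in paraquat and 36.0 and 30.5 in control libraries, where the lowest background of these lists was 12.5 to 14.7.

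A region found in number 1 alone reached the same level. On Uextra at 26944296 to 26944459, it had a fold of 6.25 in paraquat library 1 and 6.44 in control library 1, at percentiles 96.3 and 99.3, and no peak in either number 2 library or in the wildtype lists.

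The 2 sets differed in how the libraries ranked them. In the set without wildtype KDM5 the median percentiles were 99.4 and 99.0 in paraquat libraries 1 and 2 and 99.1 and 97.7 in control libraries 1 and 2. In the set with wildtype KDM5 they were 99.5 and 79.6 in paraquat and 98.1 and 63.0 in control libraries. On Uextra at 1779875 to 1780197, for example, folds were 8.70 and 3.48 in paraquat libraries 1 and 2 and 6.12 and 3.04 in control libraries 1 and 2, with a wildtype KDM5 fold of 6.13 and an H3K4me3 fold of 4.37. The fold was higher in number 1 than in number 2 under both feedings in 7 of the 10 regions with wildtype KDM5, or 70% (39.7 to 89.2). The same held for 3 of the 10 without, or 30% (10.8 to 60.3). The share over all regions of 4 libraries was 45.0%. Regions are not replicates and the sets were split after their values were seen, so this contrast was not tested. The wildtype KDM5 peaks of the second set stood between percentiles 27.2 and 57.6 of their own list.

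**Figure D4:**
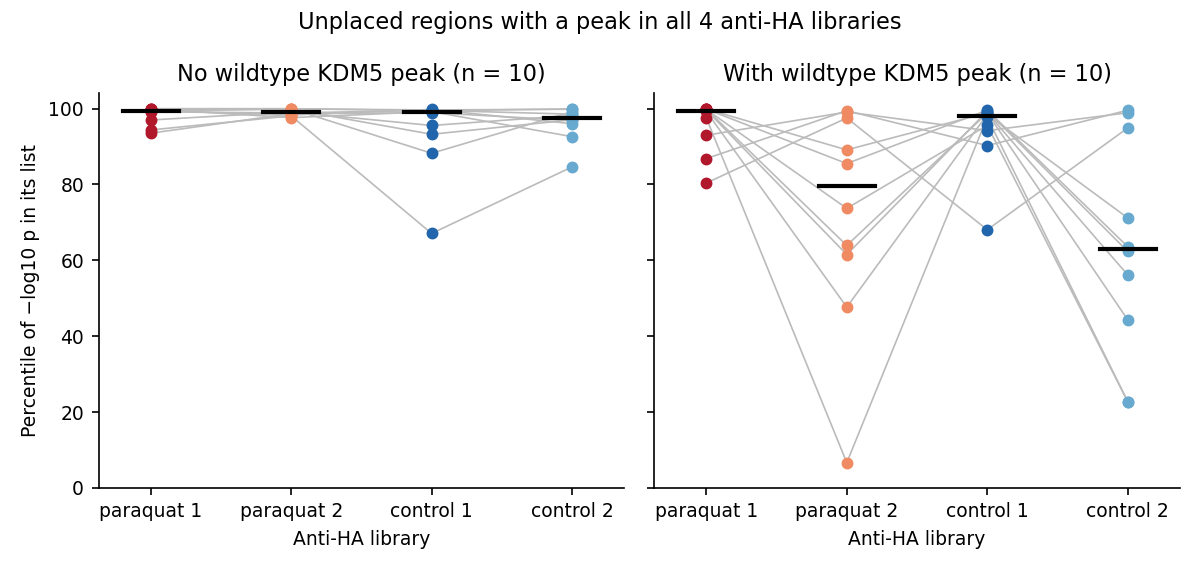
Percentile of −log10 p within its list (y axis) in each anti-HA library (x axis) for the 20 unplaced regions with a peak in all 4, split by presence of a wildtype KDM5 peak. Points are regions, grey lines join a region across libraries and black bars are medians; the 10 without wildtype KDM5 have medians of 97.7 to 99.4, and the 10 with it have 79.6 and 63.0 in paraquat 2 and control 2.

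Within both numbers the fold was higher in paraquat than in control in 13 of the 20 regions, 65% (43.3 to 81.9), where the share over all regions of 4 libraries was 41.8%. It was lower within both numbers in none of the 20, where the share over all was 6.68%. The 10 regions without wildtype KDM5 supplied 8 of the 13. At 2684488 to 2684860 on Uextra the folds were 7.61 and 9.06 in paraquat libraries and 4.27 and 5.16 in control libraries, with means of 8.33 ± 1.02 and 4.72 ± 0.627 (SD, n = 2 each). At 27346764 to 27347304 they were 7.40 and 10.6 in paraquat and 4.40 and 6.90 in control libraries, with means of 8.99 ± 2.25 and 5.65 ± 1.77. The conditions overlapped at neither region, with the narrower gap at the second region. Both regions were named after their values were seen. Of the 5 strongest regions given above, the conditions overlapped at 2178513, 9095412 and 19603879, and not at 17026051 and 7039378. Folds are not scaled between libraries, and no test was run on them, since an exact permutation of 2 against 2 libraries can give no p below 0.333.

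Several measures bear on repeats and read mapping. A raised local background means more fragments of the caller's background around the peak than the lowest level of that list. It exceeded 1.5 times that level at 14.6% and 16.2% of unplaced peaks in paraquat libraries 1 and 2, against 1.64% and 1.52% on arms. In control libraries 1 and 2 it did so at 15.2% and 32.3%, against 1.78% and 1.99%. Wildtype KDM5 had 37.2% on unplaced scaffolds, against 2.13% on arms, and H3K4me3 36.4%, against 6.13%. The share was thus higher on unplaced scaffolds in all 6 lists. It exceeded 2 times the lowest level at 16.6% of unplaced H3K4me3 peaks, 20.9% of wildtype KDM5 peaks and 7.46% to 12.9% of anti-HA peaks, against at most 1.29% on arms in any list. The highest background reached 199 fragments in wildtype KDM5 and 132 in H3K4me3.

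Many members had no raised background, however. At the lowest level of the list, within 0.1%, stood 62.7% and 51.4% of unplaced peaks in paraquat libraries 1 and 2, against 56.3% and 51.8% on arms, and 61.2% and 29.0% in control libraries 1 and 2, against 58.5% and 53.1%. Of wildtype KDM5 peaks 32.6% did, against 44.6% on arms, and of H3K4me3 peaks 23.9%, against 41.1%. Of the 10 strong regions without wildtype KDM5, the best peak stood at that level in 4 and 6 regions in paraquat libraries and in 3 and 4 in control libraries. The region at 17026051 did so in all 4 libraries. The share of H3K4me3 peaks on unplaced scaffolds among peaks at the lowest background was 24.3%, against 35.4% among all.

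Peaks hardly wider than the caller's shortest were more common on unplaced scaffolds. Of unplaced peaks 16.4% and 13.5% measured 110 bp or less in paraquat libraries 1 and 2, against 5.70% and 6.48% on arms. In control libraries 1 and 2 the shares were 11.04% and 9.68%, against 5.92% and 6.04%, and in H3K4me3 14.2%, against 5.82%. Wildtype KDM5 has no peak that short anywhere. Peaks equal in width, pileup and fold to another peak of the same scaffold class were 7.40% of unplaced and 9.88% of arm peaks in H3K4me3, 0 of 344 and 1.47% in wildtype KDM5. In the anti-HA lists they were 0% to 4.53% of unplaced and 9.94% to 13.1% of arm peaks. Lists with fewer peaks on a class give fewer chances of a match, so these shares are not on an equal footing. H3K4me3 summits on unplaced scaffolds lay at a median of 41.04% of the peak's width, against 50.04% on arms. The part of repeats or mapping in any result above was not tested, and reads, inputs and dm3 sequence were not used here.

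**Figure D5:**
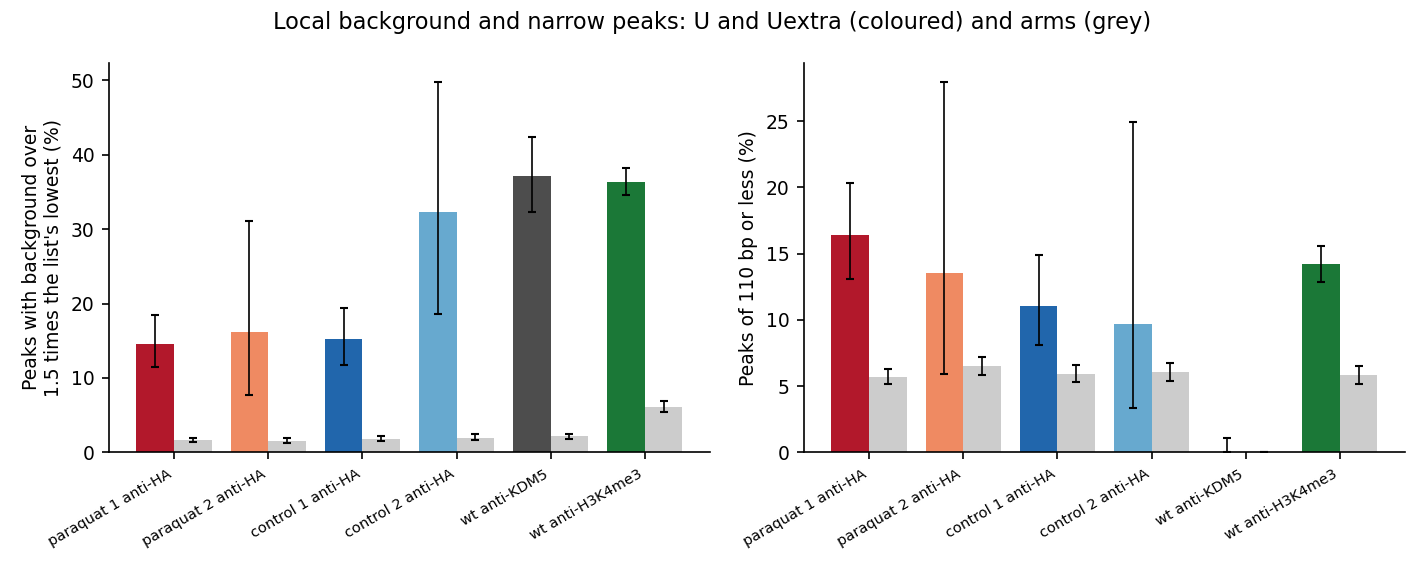
Percentage of peaks (y axes) whose local background is over 1.5 times the lowest of the list (left) and percentage of peaks of 110 bp or less (right) in the 6 libraries (x axis), on U and Uextra (coloured, left bar) and arms (grey, right bar), with 95% Wilson intervals. The background share is higher on unplaced scaffolds in all 6 lists, from 14.6% to 37.2%, against 1.52% to 6.13% on arms.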

How the data were processed

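ChIP-seq libraries of 6 samples were used. Per the submitters' processing notes, CASAVA 1.4, Bowtie and MACS2 were used with build dm3; the sources used here do not give settings or the input paired with each list, and the 3 inputs were not analysed here. The authors deposited 1 peak list per library, with no pooling, of 10 columns without a header. Each deposited row gives a pileup signal, a −log10 p-value, a fold ratio over the local background and a −log10 q-value. The weakest deposited q-values were 0.0421 to 0.0498. Pileups are whole numbers except in the wildtype KDM5 list, which looks scaled. Depth is unknown.

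Computed here (Python 3.11.15, scipy 1.17.1): starts were shifted to count from 1; background was recovered as (pileup + 1)/fold − 1, with a lowest value of 13.7 and 13.4 fragments in paraquat, 14.7 and 12.5 in control, 31.0 in wildtype KDM5 and 13.6 in H3K4me3. Peaks of different lists were matched, and anti-HA peaks merged, where they overlapped by 1 bp or more. The functions were tested on simulated data. Lists are the units of every test: exact permutation of the 4 anti-HA libraries, and exact sign-flips over 6 lists. Alternatives changed the q threshold, overlap rule, intervals, list length, scaffolds and libraries. Named sites are the 5 strongest regions of all 4 libraries, the 5 strongest peaks of each wildtype list, the 3 strongest regions parted by feeding, the 5 strongest regions without wildtype KDM5, the 3 strongest H3K4me3 peaks with KDM5 and the 3 densest windows; others named (widest peaks, 3 further regions of 4 libraries) were chosen after their values were seen. Members and rules were chosen with earlier results of these data known.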

Additional observations from a re-analysis of the deposited data

How the results depend on the processing

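Of 115 alternative values for 15 results, 83 kept the direction and side of the threshold or stayed close. Leaving out 1 library each moved the paraquat minus control difference in unplaced share between -2.63 and 2.43 percentage points. It turned positive without paraquat library 2 (2.20) and without control library 1 (2.43), and also with peaks at the lowest background only (0.204), a setting chosen after seeing the data. With replicate number as a block the difference was -0.0983 (exact permutation p = 1, smallest possible 0.5). Deviations over 8 scaffolds correlated at 0.961 between same-numbered libraries, but no label pairs them. The split of U and Uextra by number can itself raise this correlation, so it is no separate evidence of pairing. Regions of both paraquat and neither control library, 4 in all, numbered 0 on U and 1 at equal list lengths. With 1 library left out, which loosens the rule, they numbered 6 to 173. The single control region became 0 at −log10 q of at least 2, on Uextra and at equal lengths. Under the same looser rule it became 1 to 108 with 1 library left out. The number 1 pair gave 100 regions at equal lengths, against 190. Regions in 2 or more libraries without wildtype KDM5 ranged from 16 to 163 with 1 library left out. Those in all 4 libraries numbered 9 to 12, but 2 where all peaks had to stand at the lowest background (added later). The H3K4me3 share was 33.1% at the stricter q, 28.3% in the upper 50% of the list, 33.8% on Uextra, 1.58% on U and 24.3% at the lowest background. Its overlap with wildtype KDM5 was 4.30% with 50% of both intervals and 7.79% at the lowest background. Its overlap with anti-HA was 5.27% with 50% of both intervals, 18.3% on U and 6.47% to 9.38% with 1 library left out. Windows with H3K4me3 made up 90.9% at 50 kb and 100% at 500 kb. The median gap on Uextra, 6366 bp, was 7223.5 bp at the stricter q. The 4 differences between unplaced and arm medians passed no threshold under any alternative, and 5 lists can give no p below 0.0625. Lists without read totals limit every comparison of heights between libraries.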
